A study of Homo sapiens with 2 samples.

Results

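The peaks described here are sites of mTOR chromatin immunoprecipitation in the coding exons and at the 3′ ends of zinc finger genes. mTOR is a kinase that adjusts growth and protein synthesis to nutrients and growth factors. It was precipitated with an antibody from cross-linked MDA-MB-231 cells, an established human triple-negative breast cancer line kept in medium with serum and antibiotics. There was 1 mTOR library and 1 input library as reference for peak calling, with no further treatment, genotype or time given in the labels. The members are the peaks whose nearest annotated start site belongs to a gene with a name of ZNF followed by a digit, and whose deposited class is exon, 3′ UTR (untranslated region) or TTS (transcription termination site). They numbered 241 of 21440 peaks, or 1.12% (95% exact Clopper-Pearson interval 0.987 to 1.27%): 206 in exons, 25 in 3′ UTRs and 10 at termination sites. There is no replicate, the depth is unknown, and peaks of 1 library are not replicates, so the text gives counts, medians and intervals for counting error, and no test. All positions are on hg38.

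ZNF genes encode proteins with C2H2 zinc fingers, short folds around a zinc ion that are repeated in tandem and read DNA. Many also carry a KRAB domain, which recruits the corepressor TRIM28 (KAP1) and the histone H3 lysine 9 methyltransferase SETDB1. In most KRAB zinc finger genes the whole finger array is encoded in the last coding exon, and many of these genes stand in clusters, above all on chromosome 19. The 3′ exons of such genes are known in several cell types to carry the repressive mark H3K9me3 together with ZNF274, TRIM28, SETDB1 and ATRX. H3K9me3 was not measured here.

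ZNF genes took a large part of the exon peaks. Of the 521 exon peaks in the whole list, 206 were named for a ZNF gene (39.5%, 35.3 to 43.9%), as were 25 of 139 3′ UTR peaks (18.0%, 11.99 to 25.4%) and 10 of 245 termination site peaks (4.08%, 1.97 to 7.38%). In the other gene-linked classes ZNF genes had 20 of 164 non-coding peaks (12.2%, 7.61 to 18.2%), 6 of 121 5′ UTR peaks (4.96%), 109 of 2797 promoter peaks (3.90%) and 139 of 8113 intron peaks (1.71%). Among the 50 exon peaks with the highest scores, which reached down to 322, 37 were named for a ZNF gene and 41 lay in a ZNF transcript. The exon peaks named for ZNF121 and ZNF506 both had 322, and the cut at 50 fell within this tie. The score is the authors' own whole number per peak. Its scale is not stated, and it serves only to describe and rank peaks.

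The nearest start site did not always name the gene that holds the peak. The transcript given in the annotation could be matched to a gene for 239 members. It belonged to the named gene for 183 and to another gene for 56, of which 50 were also ZNF genes. All 42 members that lay upstream of the named start were among the members not placed in a transcript of their named gene. The second-ranked member shows this. It is named for ZNF8, at a distance of -16432 bp from that start, but lies in exon 7 of 7 of ZNF544. In the opposite direction, 29 peaks of the same classes lay in ZNF transcripts but were named for other genes, and 26 of these were in exons. The highest, with a score of 1107, covered exon 6 of 6 of ZNF286A (chr17:15715811-15717987) and is named for TBC1D26. Below, a gene that differs from the deposited name is given as the gene of the transcript, and comparison peaks are the 635 exon, 3′ UTR and TTS peaks that are neither named for a ZNF gene nor placed in a ZNF transcript.

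Exon members lay almost throughout in the last exon. Of 206, 201 were in the last exon of the annotated transcript (97.6%, 94.4 to 99.2%), none was in the first, and the transcripts had a median of 4 exons. Peaks at promoters and in 5′ UTRs have classes of their own in every gene, so first exons enter the exon class only in part. In the comparison peaks 99 of 289 exon peaks were in the last exon (34.3%, 28.8 to 40.04%) and 115 in the first. These 2 counts overlap, because a peak in a single-exon transcript is in both the first and the last exon. Such transcripts raise the comparison share, and no ZNF exon peak lay in one. The comparison share was higher at high scores. A restriction to peaks of 200 or more was chosen after the data were seen. Among them 15 of 23 comparison exon peaks (65.2%, 42.7 to 83.6%) and 76 of 77 ZNF exon peaks (98.7%, 93.0 to 99.97%) were in the last exon. Those 15 included ZFP69B, ZFP3, ZFP1, ZFP37, ZFP69, ZSCAN31, ZSCAN32, ZSCAN29 and ZKSCAN5, genes of other zinc finger families. RBAK and ZFP36L2 were among the 15 too, so the zinc finger genes listed are not all of them. INSM2 and BORCS6, also among the 15, have transcripts of a single exon. So this share does not describe genes outside zinc finger families alone. Without a limit on the score, an even spread over the exons of their transcripts would put 22.9% of ZNF exon peaks in the last exon. For comparison exon peaks it would be 28.3%, single-exon transcripts included. The lengths of the exons were not used here, so the even spread takes no account of them. In transcripts of 4 exons all 78 ZNF exon peaks were in exon 4, against 7 of 23 comparison peaks. In transcripts of 3 to 7 exons the shares were 98.4% (184 of 187) and 26.9% (29 of 108), with intervals of 95.4 to 99.7% and 18.8 to 36.2%. On chromosome 19 alone 19 of 69 comparison exon peaks were in the last exon (27.5%, 17.5 to 39.6%), while 127 of 129 ZNF exon peaks were.

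**Figure D1:**
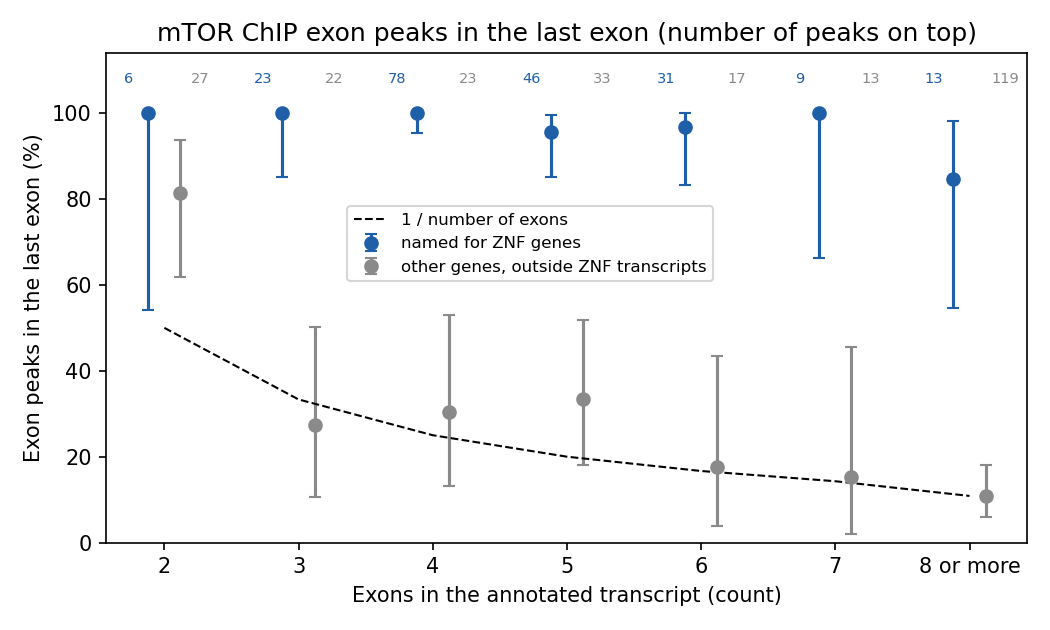
Share of exon peaks in the last exon (%) against the number of exons in the annotated transcript, for peaks named for ZNF genes (blue) and comparison peaks (grey). Single-exon transcripts are not shown. Bars are exact 95% intervals, figures on top are numbers of peaks, and the dashed line is an even spread over the exons of the ZNF transcripts; the ZNF share is 84.6% or higher in each class.

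The 5 exon members outside a last exon were few enough to name. The ZNF585A peak (score 654) lay in exon 5 of 6 of ZNF420, and the ZNF852 peak (159) in exon 4 of 5 of a transcript that the gene table did not hold. One named for ZNF180 (121) lay in exon 6 of 10 of CEACAM20, a cell adhesion gene outside the family. Those of ZNF219 (69, exon 3 of 5) and ZNF704 (19, exon 4 of 9) completed the set. Of the 25 members in 3′ UTRs, 24 were in the last exon, as were all 112 comparison peaks in 3′ UTRs. This largely follows from the 3′ UTR class itself and adds nothing on the placement of exon peaks.

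Measured from the gene's 3′ end, exon members stood a few kilobases inside the gene. The strand was known for 181 of the 206, and their centres lay at a median of 3329 bp (2968 to 4152, exact interval of the median) before the end of the outermost gene span, with quartiles of 1797 and 7487 bp. Comparison exon peaks lay at a median of 5103 bp (4176 to 7395, n = 236) and were spread more widely, with an upper quartile of 21042.5 bp. Relative to the gene span, ZNF exon peaks sat at a median of 82.8% of the way from start to end and comparison exon peaks at 38.2%. No ZNF member overlapped any of the 35116 promoter windows in the RefSeq table used here, which reach from 250 bases before to 50 bases after a gene's start. The member rule leaves out peaks of the promoter class, so this absence largely follows from the rule.

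**Figure D2:**
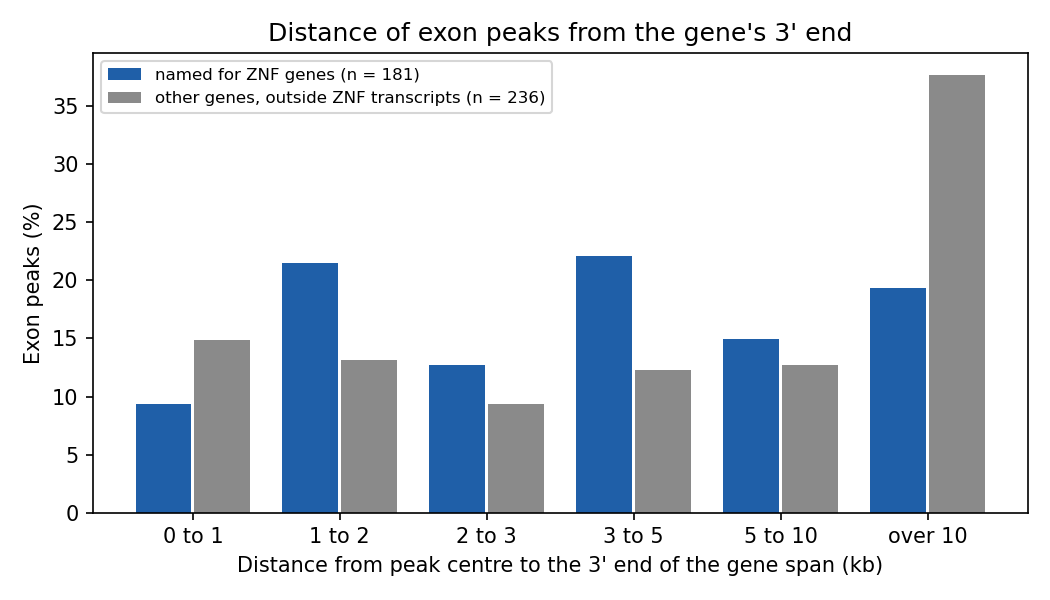
Distance from peak centre to the 3′ end of the gene span (kb) on the x axis and share of exon peaks (%) on the y axis, for ZNF genes (blue, n = 181) and comparison peaks (grey, n = 236). The classes widen with distance; 22.1% of ZNF exon peaks lie at 3 to 5 kb and 21.5% at 1 to 2 kb, while 37.7% of comparison peaks lie over 10 kb from the end.

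Members were wide. Their median width was 1091 bp (940 to 1199), from 252 bp at ZNF322 to 3510 bp at ZNF208, against 435 bp (406 to 452) in the comparison peaks and 400 bp over all 21440 peaks. More than 1 kb was covered by 131 of the 241 (54.4%), by 12.9% of comparison peaks and by 6.33% of all peaks. Exon members were the widest, with a median of 1122.5 bp (1012 to 1282), followed by 631 bp (438 to 1275) in 3′ UTRs and 500 bp (287 to 854) at termination sites. The 3′ UTR interval overlaps those of both other classes, while the intervals of exons and termination sites do not overlap. The 5 widest members lay in the last exons of ZNF208 (score 202), ZNF268 (3296 bp, 853), ZNF605 (2871 bp, 581), ZNF594 (2869 bp, 446) and ZNF84 (2753 bp, 687).

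Scores were also high. The median was 123 (100 to 146) in the members, 46 (44 to 51) in the comparison peaks and 61 in all peaks. A score of 200 or more, the highest 10.0% of the list with ties, was reached by 2147 of all peaks, 34.9% of members (84 of 241, 28.9 to 41.2%) and 7.87% of comparison peaks (50 of 635, 5.90 to 10.2%). By class, the median score was 137 (109 to 159) in exons, 56 (39 to 89) in 3′ UTRs and 74 (45 to 225) at termination sites. Only the exon interval lies wholly above the 61 of all peaks. Score and width rose together across the members, with Pearson's r of 0.76 between their log2 values (n = 241), and of 0.60 in the comparison peaks (n = 635). These points share 1 library and are given as a description. Among peaks of 200 or more the median score of members was 319.5 (285 to 348) and that of all peaks named for other genes 319 (270 to 482). Of these 57 peaks named for other genes only 50 are comparison peaks, and the rest lie in ZNF transcripts. Their median therefore does not describe the comparison peaks.

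**Figure D3:**
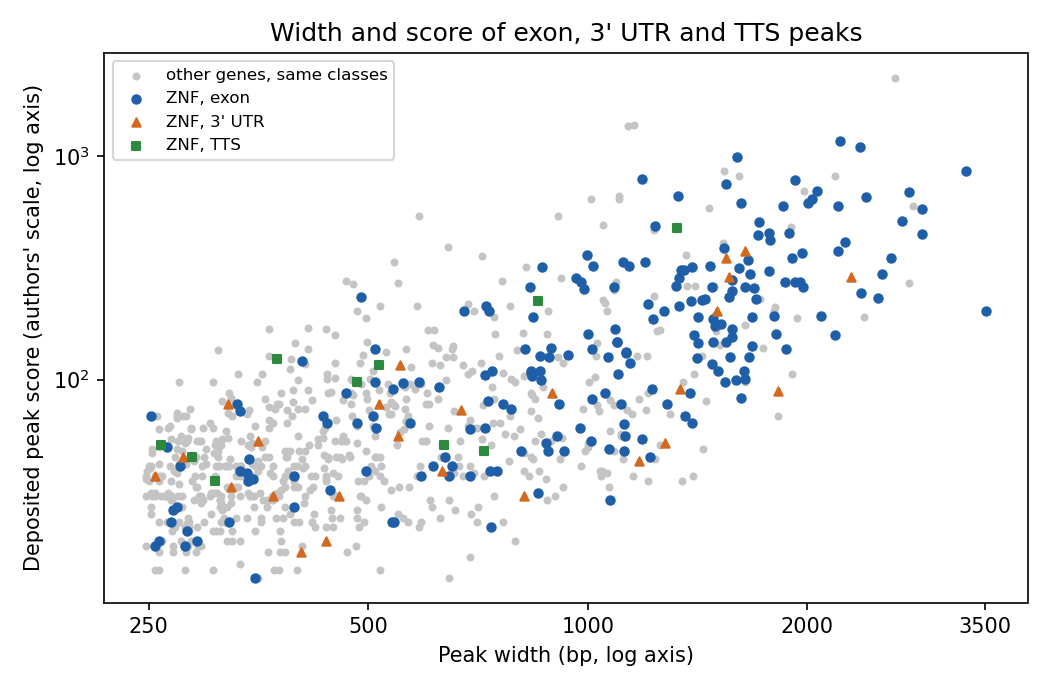
Peak width (bp) against deposited score, both on log axes, for ZNF members by class (coloured) and for the 635 comparison peaks (grey). Blue exon members extend to 3510 bp and a score of 1161 around medians of 1122.5 bp and 137, whereas the grey peaks have medians of 435 bp and 46.

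The 20 highest members had scores from 485 to 1161 and widths from 1186 to 3296 bp. All 20 were exon peaks and 19 were in the last exon. They lay on 6 chromosomes, 11 of them on chromosome 19, and 15 were in a transcript of the named gene. ZNF180 ranked first with 1161 (chr19:44475965-44478181, exon 4 of 4, 2217 bp). The peak in ZNF544 followed with 1099 (chr19:58261342-58263705, 2364 bp). ZNF436 had 994 (chr1:23361616-23363216, exon 4 of 4, 1601 bp), and ZNF268 had 853 (chr12:133201983-133205278, exon 6 of 6). These 4 peaks stood on 3 chromosomes, so the highest scores did not come from a single gene cluster.

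Next came ZNF3 with 790 (chr7:100070755-100071940, exon 4 of 4), ZNF557 with 781 (chr19:7082676-7084600, exon 8 of 8) and ZNF77 with 752 (chr19:2933085-2934629, exon 4 of 4). ZNF12 had 699 (exon 5 of 5), ZNF84 had 687 (exon 5 of 5) and ZNF75A had 664 (exon 5 of 5). ZNF564 had 645, ZNF333 had 613 in exon 12 of 12, and ZNF891 also had 613 in exon 2 of 2. The last exon was thus occupied in transcripts of 2 exons as well as of 12. Peaks in ZNF700 and ZNF529, named for ZNF763 and ZNF260, had 595 each, and ZNF605, ZNF16, ZNF559 and ZNF556 had 581, 510, 504 and 485. At the low end, ZNF419 had 13 (350 bp), ZNF791 had 17 for a 3′ UTR peak and ZNF568 had 18 (255 bp).

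The 3′ UTR members were led by ZNF426 with 374 (chr19:9523657-9525301, 1645 bp), ZNF514 with 348 (chr2:95148415-95149961, 1547 bp) and ZNF554 with 287 (chr19:2833923-2836217, 2295 bp). ZNF763 had 286, ZNF738 had 202 and ZNF605 had 116. The next 4 had 91 at ZNF765, 89 at ZNF780B, 87 at ZNF816 and 78 at ZNF322, tied with a peak of 78 at ZNF469. So 5 of the 25 had a score of 200 or more, all 5 of them wider than 1 kb. At termination sites ZNF544 had 477 (chr19:58251412-58252735), ZNF562 had 225 and the end of TMEM253, named for ZNF219, had 123. The other 7 had scores of 116 to 35, at ZNF875, ZNF433-AS1, ZNF816, ZNF460, ZNF735, ZNF718 and ZNF556.

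Several peaks in 1 gene were less common than the names make it appear. By name, 154 of 196 genes had 1 member, 39 had 2 and 3 had 3. Among the members, 5 are named for a non-coding RNA gene and 6 for a pseudogene, and these names count among the 196. The 3 were ZNF266, ZNF433 and ZNF527, and each combined peaks of more than 1 gene. For ZNF527 the peak in its own exon 5 of 5 had 109, one in exon 5 of 5 of ZNF569 had 297 and one at the end of ZNF875 had 116. For ZNF433 the peak in its own exon 4 of 4 had 137, one in ZNF878 had 45 and one at the end of ZNF433-AS1 had 97. ZNF266 had 2 peaks in its own exon 11 of 11, with 78 and 61, beside one of 91 in exon 10 of 10 of ZNF560.

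By transcript, only 20 genes had 2 or more members. Their 21 neighbouring pairs lay a median of 426 bp apart, from 255 to 40308 bp. In 14 pairs an exon peak was joined by one in the 3′ UTR or at the termination site. ZNF605 showed 581 in the exon and 116 in the 3′ UTR 472 bp away, ZNF791 showed 314 and 17 at 263 bp, and ZNF12 showed 699 and 33 at 832 bp. In these 3 genes the exon peak was the higher one. At ZNF426, in contrast, the 3′ UTR peak of 374 and the exon peak of 343 were close in score and 3064 bp apart. The 3′ UTR peak was also the higher at ZNF322 (78 and 69) and ZNF331 (39 and 22). In the rest of the 14 pairs the exon peak was the higher. In 16 of the 21 pairs, 3′ UTR peaks included, both peaks lay in the same exon of the same transcript. In 4 of these both were of the exon class, at ZNF91 (64 and 109), ZNF266, ZNF615 (39 and 255) and ZNF850 (83 and 93), with 255 to 526 bp between them.

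Chromosome 19 carried most members. It held 155 of 241 (64.3%, 57.9 to 70.4%), while 250 of the 517 protein-coding ZNF genes (48.4%) and 149 of 635 comparison peaks (23.5%, 20.2 to 27.0%) lay there. Of the ZNF genes on chromosome 19, 146 of 250 had an exon or end peak in a transcript (58.4%, 52.0 to 64.6%), against 91 of 267 elsewhere (34.1%, 28.4 to 40.1%). Members elsewhere were nevertheless higher and as confined to last exons. Their median score was 179.5 (137 to 225, n = 86) against 97 (83 to 118, n = 155) on chromosome 19, and 74 of their 77 exon peaks were in the last exon. Members stood on 19 of the 23 chromosomes with peaks. After chromosome 19 the most were on chromosome 7 with 13 and chromosome 12 with 8.

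On chromosome 19 the members formed 13 groups when neighbours up to 1 Mb apart were joined, and 7 of these had 10 or more members and 141 in all. Each group runs from its first to its last member, so its end genes have peaks by construction and ZNF genes beyond its ends are left out. Inside the 13 groups 143 of 216 protein-coding ZNF genes had an exon or end peak in a transcript, and outside them 3 of 34. All members on chromosome 19 lie inside a group, because the groups were built from them. A ZNF gene outside could thus count largely only through a peak named for a gene outside the family. The low outside share is therefore set by the grouping, and the counts cannot show whether peaks cluster. Among the 7 larger groups, the share of protein-coding ZNF genes with an exon or end peak in a transcript ran from 45.0% to 95.8%. It was highest in the short-arm group at chr19:11617096-12629736, with 23 of 24 genes (78.9 to 99.9%) and a top score of 645 at ZNF564. Its neighbour at chr19:8811169-9758552 had 12 of 13 genes (64.0 to 99.8%). The group next to the centromere, chr19:19679191-23362412, which includes ZNF91, had 25 of 33 (57.7 to 88.9%), a median score of 75.5 and a top score of 414 at ZNF737. On the long arm, chr19:36236626-37612553 had 19 of 24 (57.8 to 92.9%).

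In the 3 distal long-arm groups the counts were 9 of 20 (23.1 to 68.5%) at chr19:43846939-44513400, which includes the top member at ZNF180, 18 of 39 (30.1 to 62.8%) at chr19:51891067-53578365 and 24 of 48 (35.2 to 64.8%) at chr19:56423043-58433764. These shares describe the groups as bounded here and are not compared further. How reads that align to several similar ZNF genes were treated is not stated, so the values of close paralogs within a group are uncertain.

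**Figure D4:**
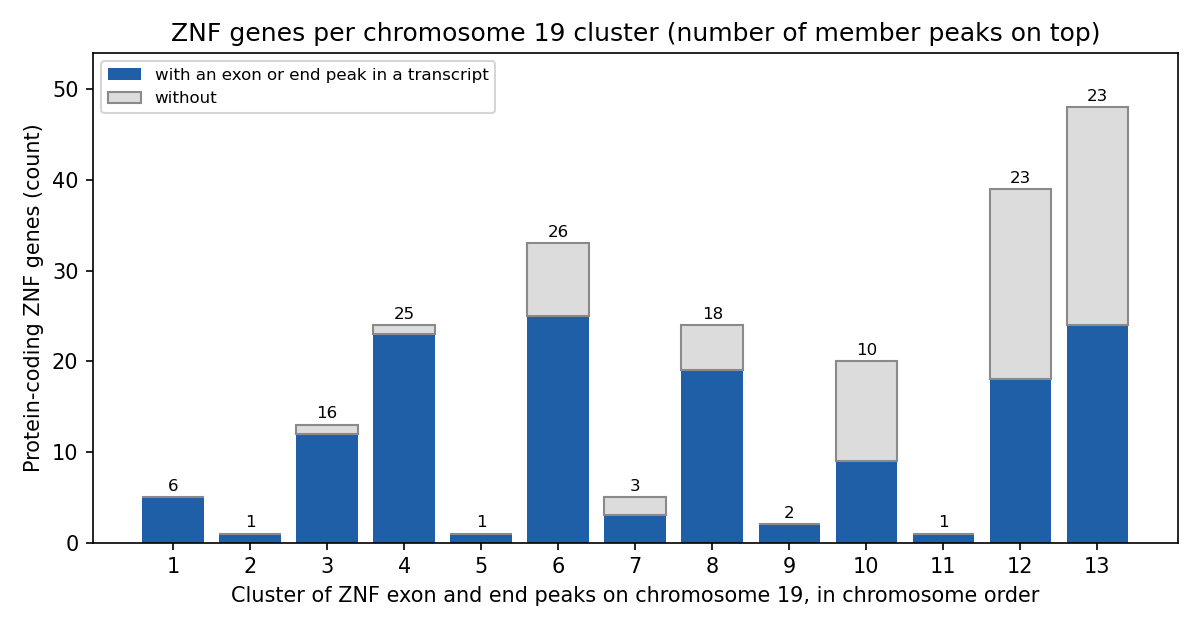
Number of protein-coding ZNF genes (y axis) in each of the 13 groups of members on chromosome 19 (x axis, in chromosome order), divided into genes with an exon or end peak in a transcript (blue) and without (grey), with the number of members on top. Group 4 has 23 of 24 genes with a peak, and groups 10, 12 and 13 have 9 of 20, 18 of 39 and 24 of 48.

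Counted over genes, 186 of 517 protein-coding ZNF genes had a member by name (36.0%, 31.8 to 40.3%), where 3.22% of all 19974 protein-coding genes had a peak of these classes by name. By transcript the counts were 237 of 517 (45.8%, 41.5 to 50.2%) against 3.84% of all protein-coding genes. Some other C2H2 families also stood above that background. ZFP genes had 12 of 21 by transcript (57.1%, 34.0 to 78.2%), with ZFP69B at 595 in exon 5 of 5. That name pattern also takes in ZFP36L2 and ZFP36L1, both among the 12, whose fingers are of another kind. ZSCAN genes, which carry a SCAN dimerization domain, had 6 of 21 (28.6%, 11.3 to 52.2%), with ZSCAN31 at 320. ZKSCAN genes had 2 of 7, where the interval of 3.67 to 71.0% reaches below 3.84%, with ZKSCAN5 at 465.

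ZBTB genes, which join C2H2 fingers to a BTB domain, had 1 of 42 (2.38%, 0.0603 to 12.6%), near the background. Among families without zinc fingers, olfactory receptor genes had 2 of 392 (0.510%, 0.0618 to 1.83%). Protocadherin genes had 0 of 65, HOX genes 0 of 40 and keratin genes 0 of 55. The exact intervals of these 3 reach 5.52, 8.81 and 6.49%, above the background of 3.84%, so their counts are not told apart from it. A limit of 3 counts gives 4.62, 7.50 and 5.45%. Of 17 genes for proteins that silence chromatin with KRAB zinc fingers or through H3K9 methylation, TRIM28, SETDB1 and ATRX among them, 0 had such a peak by name (up to 19.5% by the exact interval and 17.6% by the limit for a count of 0) and 1 by transcript. This was ZNF274, in exon 8 of 8 (score 97, chr19:58212669-58213178), a peak deposited under ZNF544.

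**Figure D5:**
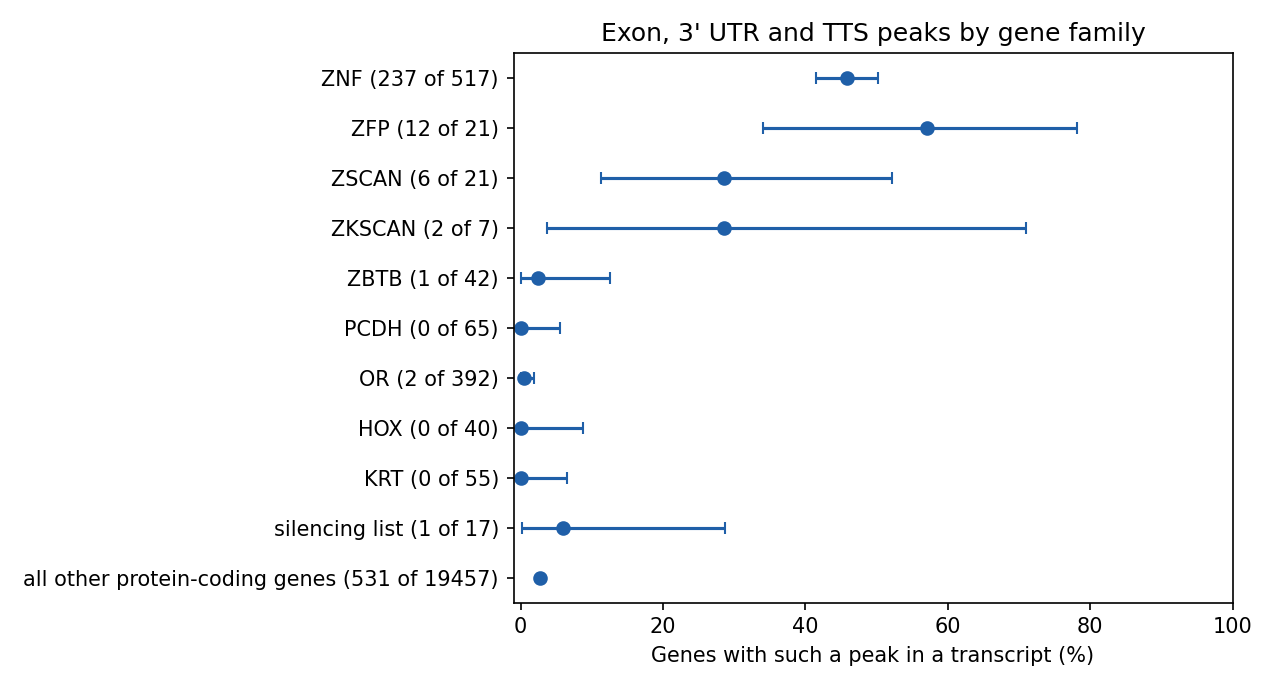
Share of protein-coding genes with an exon, 3′ UTR or TTS peak in a transcript (x axis, %) for each gene family (y axis, with counts); bars are exact 95% intervals. ZNF (45.8%) and ZFP (57.1%) lie above all other protein-coding genes (2.73%), ZBTB (2.38%) does not.

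Most genes named by a member had no peak of another class. Of the 196 names, 108 (55.1%) had none, while 38 also had a promoter peak (19.4%, 14.1 to 25.6%), 33 an intron peak and 32 an intergenic peak. Apart from the promoter class, these shares were not counted for other genes, so they are not read as particular to genes with a member. A promoter peak was as frequent without a member as with one: 35 of 186 protein-coding ZNF genes with a member (18.8%, 13.5 to 25.2%) and 59 of 331 without (17.8%, 13.9 to 22.4%) had one, and these intervals overlap. Among the 38 names with both, the highest exon or end peak scored above the highest promoter peak in 31 and below it in 7, with medians of 226.5 and 59. Where both peaks lay in transcripts of the named gene the counts were 21 and 8 of 29. The gap varied between genes, as 4 examples chosen after their values were seen show. ZNF527 had 116 at its promoter and 109 in its exon. ZNF114 had 532 at its promoter (chr19:48269431-48270183) and 19 at its 3′ end, whereas ZNF268 had 139 and 853 and ZNF75A had 158 and 664.

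The peak sequences themselves were not used here, but the promoters of the same genes could be read from the RefSeq table (GRCh38.p14, a later patch of hg38). RONIN (THAP11), the DNA-binding protein of the complex named in the series title, is known to bind a long motif also bound by ZNF143. Its core was searched on both strands as ACTACA, any 2 bases and TCCCAG, a search added after the peaks had been examined. It occurred in 27 of 239 windows (11.3%) of genes whose transcript holds a member, and in 359 of all 35116 windows (1.02%). Windows of 1 gene can overlap, and genes that share a divergent promoter share a match. Counted per gene, 25 of 190 genes whose transcript holds a member had a match (13.2%, 8.70 to 18.8%). So did 24 of 302 ZNF genes without an exon or end peak in a transcript (7.95%, 5.16 to 11.6%). Among protein-coding genes outside the family it was 246 of 15376 (1.60%, 1.41 to 1.81%). ZNF genes whose exon or end peaks are all named for genes outside the family are in neither of the first 2 groups. The intervals of these 2 groups overlap. So the match goes with ZNF promoters and was not told apart between genes with a member and ZNF genes without such a peak.

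Of the 25 genes, 14 had an mTOR peak over the match, with scores of 45 to 156, and 11 had none. ZNF790 and ZNF345 share a match and its peak of 53, which is counted for both genes here and below. How often a peak covers the other matches, or promoters without a match, was not counted. The 14 of 25 is therefore not read as a property of the match. A match describes letters in the window and not a bound site. Stretches of 6 are shown 5′ to 3′ on the gene's strand with the match in capitals, the first 4 at genes with high exon peaks and a peak over the match, the last 2 at genes with an exon peak alone. On the gene's strand the motif reads in reverse complement except at ZNF420.
ZNF180 (chr19:44500554-44500583, minus strand): ggaggcttCTGGGAATTGTAGTtctggctc
ZNF268 (chr12:133181432-133181461, plus strand): agaggcctCTGGGAGTTGTAGTttttttgc
ZNF420 (chr19:37078332-37078361, plus strand): agcgctggACTACATTTCCCAGaggcacgg
ZNF605 (chr12:132956294-132956323, minus strand): gcgggacgCTGGGAAATGTAGTtctgcgcg
ZNF230 (chr19:44002831-44002860, plus strand): agtgaattCTGGGAACTGTAGTccatcaac
ZNF189 (chr9:101398712-101398741, plus strand): tttgcacgCTGGGAAATGTAGTccagtagc
At the first 4 the peak over the promoter match had a score of 61, 139, 69 and 87, and the peak over the exon 1161, 853, 654 and 581. ZNF230 and ZNF189 had 234 and 202 in the exon and no peak over the match. Over all 14 genes with a peak over the match, the exon or end peak had the higher score in 12 and the lower in 2, ZNF527 and ZNF317 (62 over the match and 54 in the member).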

How the data were processed

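An mTOR ChIP library and an input library of MDA-MB-231 cells were sequenced. Per the submitters' processing notes, Trimmomatic 0.36, BWA 0.7.12, Picard 2.0.1, MACS2 2.1.1.20160309, HOMER 4.11.1 and hg38 were used. The settings, the peak threshold and the treatment of duplicate and multiply aligned reads are not stated. The authors deposited 1 table of annotated peaks of the ChIP library, with positions, a score of unstated scale, a class, the transcript and exon of the peak centre and the gene of the nearest start site.

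Widths count both end bases. Transcripts were matched to genes, without version, through a RefSeq gene table of GRCh38.p14, and strands came from its promoter table. Shares have exact Clopper-Pearson 95% intervals and medians exact order-statistic intervals. Parsing and intervals were tested on simulated data. Genes named are the 20 top members, genes with 3 members, the 5 widest, the top 10 in 3′ UTRs and at termination sites, the lowest members, exons other than the last, and the silencing list. Peaks that illustrate a count were chosen after their values were seen. The members and lists were chosen with earlier results of these data known. Zinc finger counts in the proteins were planned and not run, as protein sequences were not used here. Computations ran in Python 3.11.15 (matplotlib 3.10.9, scipy 1.17.1, numpy 2.4.6, pandas 2.3.3).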

Additional observations from a re-analysis of the deposited data

How the results depend on the processing

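The share of ZNF exon peaks in the last exon stayed within its interval in all 9 alternatives. With only peaks scoring 61 or more, 28.6% of ZNF genes had an exon or end peak, 20 genes had several, and the median width was 1355 bp and the score 191. The 664 peaks named for other genes, whose last exon share was 39.7%, width 443 bp and score 48 without a limit on the score, then had 53.8%, 639 bp and 102. With only peaks scoring 200 or more there were 84 members in 14.5% of ZNF genes, 3 genes with several, a width of 1606.5 bp, a score of 319.5 and 52.4% on chromosome 19. Peaks named for other genes then had 72.4%, 1158 bp and 319. With protein-coding names alone the last exon share of other genes was 33.8% in place of 39.7%. Assigned by transcript, the 262 peaks in ZNF transcripts gave 45.8% of ZNF genes and 23 genes with several. Without chromosome 19 there were 86 members in 25.8% of genes, a score of 179.5 and 13 genes with several. With 1 peak per gene the score was 147. Any peak outside promoters with most of its length in the gene span gave 59.6% of genes. The repeat filter left every value as it was, because 0 peaks of these classes carry a repeat label. The comparison with peaks outside ZNF transcripts and its limits on the score were chosen after the data were seen. Its last exon share of 34.3% was 42.6% and 65.2% at 61 and 200 or more. These comparison peaks include genes of other zinc finger families and single-exon transcripts. Depth limits all counts by an unknown amount. No paired analysis was possible because each group has 1 library.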
